A study of Drosophila melanogaster with 2 samples.

Results

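MicroRNA genes of Drosophila melanogaster were examined for chromatin occupied by Capicua (cic), in chromatin immunoprecipitation followed by sequencing (ChIP-seq) of whole adult flies. The members are the genes of the dm6 annotation (Ensembl) that carry a precursor miRNA transcript and a symbol that begins with mir-, which includes mir-let7 and mir-ban, on the 6 major chromosome arms. There were 260 such genes among 17683 named genes on these arms. Of the 260, 166 were intragenic, meaning that their hairpin lay wholly within the span of a protein-coding gene on either strand, and 94 were intergenic.

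The study has 1 group with 2 biological replicates, numbered 1 and 3, and so allows no comparison between conditions. The flies were adults of unstated age, with males and females pooled, from a transgenic line in which Capicua carries GFP at its C-terminus, and an antibody against GFP was used. The tissue is the whole animal, so peaks from different cell types cannot be told apart. Only peak lists were used, which carry no read counts, and library depth is therefore unknown.

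A miRNA is cut from a hairpin in a longer primary transcript. It is loaded into an Argonaute complex, where bases 2 to 8 of the mature strand, the seed, pair with sites in target mRNAs. Hairpins inside a protein-coding gene on the same strand are often released from the transcript of that host gene, whereas others have a long non-coding primary transcript whose start can lie far upstream. Capicua is an HMG-box repressor that receptor tyrosine kinase and ERK signalling inactivate, and bantam, the gene annotated as mir-ban, has been described as one of its targets in growing imaginal discs.

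The mature products of 7 genes named in the results are shown first. Genes that share a seed, such as mir-11 and mir-2a-1, did not always share a summit. The products were read from the RefSeq Release 6 genome (dm6) at the annotated coordinates of the first listed product of each gene. Capitals mark the seed.
mir-92a: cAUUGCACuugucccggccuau
mir-92b: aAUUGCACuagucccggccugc
mir-279: uGACUAGAuccacacucauuaa
mir-996: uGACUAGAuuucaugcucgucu
mir-11: cAUCACAGucugaguucuugc
mir-2a-1: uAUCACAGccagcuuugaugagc
mir-ban: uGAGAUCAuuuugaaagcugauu
The coordinates on dm6 are chr3R:25646560-25646581 (plus strand) for mir-92a and chr3R:25651457-25651478 (plus) for mir-92b. They are chr3R:29215651-29215672 (plus) for mir-279 and chr3R:29217244-29217265 (plus) for mir-996. The products of mir-11 and mir-2a-1 lie at chr3R:21622504-21622524 (minus) and chr2L:19569902-19569924 (minus), and that of mir-ban lies at chr3L:642259-642281 (plus).

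Capicua binds octamers of the form TGAATGAA and TGAATGGA, and 6 stretches that hold one are shown because they lie at summits in miRNA loci. Each is printed on the strand of the octamer, in capitals, with 10 bases to each side.
mir-ban host, start: gcaacaagtaTGAATGAAtgcgcgcttg
mir-ban host, inner summit, first: ttgcatttaaTGAATGAAaatcgcaggc
mir-ban host, inner summit, second: catgaatttaTGAATGAAtcgaatacgt
mir-4949: ggcggggtttTGAATGGAtcaccggctt
mir-317: gtgctcgcttTGAATGAAatgcaagcaa
mir-2282: gactgatttgTGAATGGAattctctgtg
The octamers lie on dm6 at chr3L:628305-628312, chr3L:633396-633403 and chr3L:633478-633485 for the mir-ban host, all on the minus strand. Those of mir-4949, mir-317 and mir-2282 lie at chr3R:31221887-31221894 (minus), chr3R:10091162-10091169 (plus) and chr3L:3415769-3415776 (plus). The octamer of mir-317 falls within its hairpin, between the annotated 5p product, which ends at 10091160, and the 3p product, which starts at 10091181.

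The strength of a miRNA gene is the highest score of a summit within 5 kb of it. The score is the authors' own peak strength, has no stated scaling and was used to rank and describe peaks. It came from the list of 7152 peaks that passed the authors' reproducibility threshold, called the reproducible list here, or, where that list had none, from the relaxed list of 30000 peaks called on the pooled replicates. All 7152 reproducible peaks were the highest-scoring 7152 of the pooled list, so the lists join in 1 scale of scores.

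Of the 260 miRNA genes, 99 had a reproducible summit within 5 kb (38.1%, 95% exact binomial interval 32.1 to 44.3). A further 101 (38.8%) had a relaxed summit only, and 60 (23.1%) had neither. Of all bases of the arms, 25.1% lay within 5 kb of a reproducible summit and 55.5% within 5 kb of a relaxed one, against 200 of the 260 genes (76.9%) with a summit of either kind. Protein-coding genes, which span more sequence, had a reproducible summit within 5 kb in 56.1% of 13945 cases, and tRNA, snoRNA and snRNA genes, which are short like miRNA genes, in 58.2% of 591. The share of miRNA genes therefore stood above that of bases and below that of either class of gene. These intervals cover counting error only and treat genes as independent, which they are not: the 260 genes form 202 clusters of neighbours within 5 kb, and 26 clusters with more than 1 gene hold 84 genes.

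Intragenic and intergenic genes had similar shares but different surroundings. A reproducible summit lay within 5 kb of 66 of 166 intragenic genes (39.8%, 32.3 to 47.6) and of 33 of 94 intergenic genes (35.1%, 25.5 to 45.6). The bases of protein-coding genes lay within 5 kb of a summit in 31.5% of cases, and bases outside them in 12.0%. The interval of the intergenic share lay above its background, and that of the intragenic share only just did.

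At shorter and longer distances, the shares of both kinds of gene also stood above their backgrounds, and the intergenic intervals did so throughout. Within 1 kb, 12 intergenic genes had a summit (12.8%, 6.77 to 21.2), against 4.36% of bases outside coding genes, and within 10 kb, 50 had one (53.2%, 42.6 to 63.6), against 19.7%. For intragenic genes, the counts were 21 within 1 kb (12.7%, 8.004 to 18.7), against 10.2% of bases inside coding genes, and 100 within 10 kb (60.2%, 52.4 to 67.7), against 45.1%. At 1 kb the interval of the intragenic share included the background and that of the intergenic share did not.

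**Figure D1:**
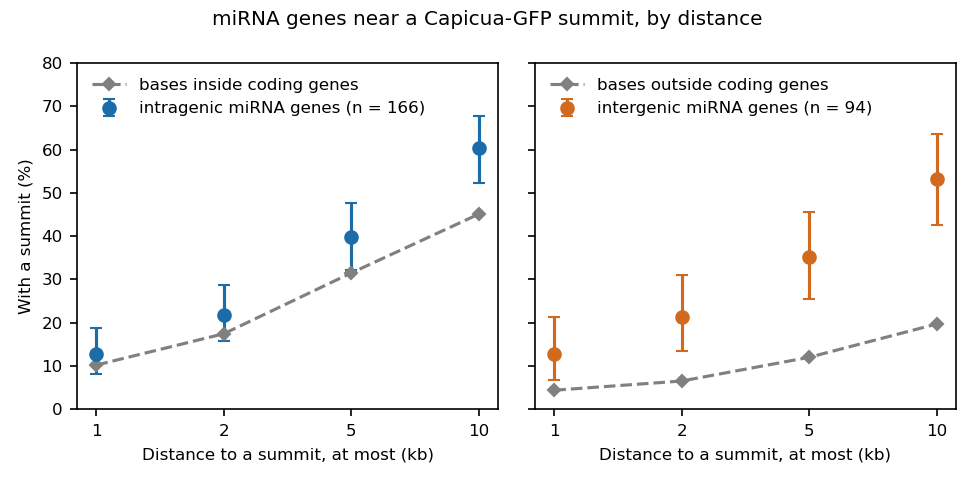
Share of intragenic (left) and intergenic (right) miRNA genes with a reproducible summit within 1, 2, 5 and 10 kb, with 95% exact binomial intervals. Grey diamonds give the share of bases inside (left) or outside (right) protein-coding genes within the same distance. Both kinds of gene lie above theirs at each distance, but the intragenic intervals include it at 1 and 2 kb.

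The intragenic genes were counted by the strand of their host. Of 136 with a protein-coding host on the same strand, 62 (45.6%, 37.0 to 54.3) had a summit, and of 30 inside a coding gene on the other strand only, 4 did (13.3%, 3.76 to 30.7). The 30 include the 6 neighbouring genes mir-959 to mir-964, and with each cluster counted once the counts were 57 of 124 (46.0%, 37.0 to 55.1) on the same strand and 4 of 21 (19.0%, 5.45 to 41.9) on the other strand only. Among same-strand genes, 16 of 34 (47.1%) whose hairpin filled an intron from end to end, as mirtrons do, had one, and 46 of the other 102 (45.1%). Among intergenic genes, 12 of 41 (29.3%) inside an annotated long non-coding gene had one, and 21 of 53 (39.6%) outside any such gene. This split was not counted by cluster. The 41 include the 8 neighbours in lncRNA:CR44504, none with a summit, and the 53 include the neighbours mir-310 to mir-313, all with one. No p-value was computed for these counts.

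The arms are given with clusters counted once as well, since neighbours share their surroundings. On X, 11 of 58 miRNA genes had a summit (19.0%, 9.87 to 31.4), against 20.5% of its bases. With each cluster counted once, 11 of 40 clusters on X had one (27.5%, 14.6 to 43.9), since 6 clusters of several genes without a summit held 24 of the 58. The shares were 41.1% of 56 on 2L, 49.1% of 55 on 2R, 48.4% of 31 on 3L and 39.7% of 58 on 3R, with 25.7%, 27.96%, 24.9% and 26.4% of their bases in that order, and neither of the 2 genes on chromosome 4 had one. By cluster, 20 of 41 had one on 2L, 20 of 40 on 2R, 14 of 30 on 3L and 18 of 49 on 3R (36.7%, 23.4 to 51.7). The interval by cluster on X overlapped those of the other large arms and included the share of its bases, so no difference of X is shown.

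The 99 genes had strengths from 116 to 1644 with a median of 231. The medians of intragenic and intergenic genes were 229.9 and 231. Protein-coding genes with a summit had a median strength of 223, the small RNA genes 204, and all 7152 reproducible peaks a median score of 179.6. Strength reached 1000 in 3 genes, 500 in 15 and 250 in 42. The 101 genes with relaxed summits only had strengths from 31.0 to 113, with a median of 59.9.

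Many of the strongest summits lay at promoters of coding genes. Counted per gene, the strongest summit was within 1 kb of a protein-coding start in 66 of 99 genes (66.7%), 48 of 66 intragenic and 18 of 33 intergenic. Of all reproducible peaks, each counted once, 64.7% were. The summit was upstream of the hairpin in 63 genes, downstream in 35 and inside it in 1. The 63 were 39 of 66 intragenic and 24 of 33 intergenic genes. No background was counted for the side, and the part of host starts in it was not tested. Neighbouring hairpins shared summits, and the 99 genes had 83 different ones, so shared summits enter these counts more than once. A gene had between 1 and 9 reproducible summits within 5 kb, with a median of 2, and 35 genes had 1.

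The scores of the replicates were similar at most of these summits. All 83 had a match in both replicates' own relaxed lists, as did 7122 of the 7152 reproducible peaks. These peaks had passed the authors' reproducibility threshold, so such agreement was not independent of their selection. The score in replicate 1 over that in replicate 3 had a median of 0.970 at the 83 summits, with a lowest value of 0.421 and a highest of 3.18. The 2 scores lay within 1.5 times of each other in 63 of 83 summits (75.9%), against 76.7% of all reproducible peaks with a match in both. Across the 83 summits, which share the same 2 libraries, Pearson's r of the log2 scores was 0.802 and Spearman's rho 0.770, given as a description. Scores differed by over 2 times at 4 summits. These were the summits of mir-14 (636 and 242 in replicates 1 and 3), mir-1006 (187 and 84.5), mir-314 with mir-956 (69.4 and 165) and the spi hairpins mir-2a-1, mir-2a-2 and mir-2b-2 (112 and 35.3).

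**Figure D2:**
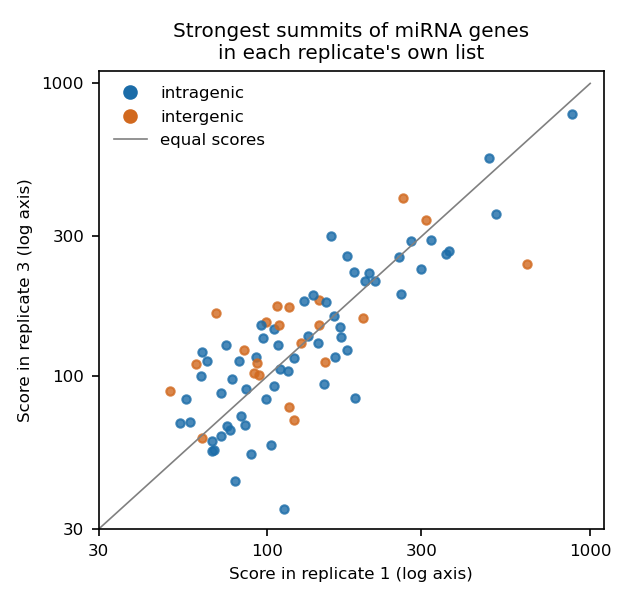
Score of each of the 83 strongest summits in the own relaxed list of replicate 1 (x axis) and replicate 3 (y axis), both log axes. Blue points belong to intragenic and orange points to intergenic miRNA genes, and most points lie near the grey line of equal scores, with 4 over 2 times apart.

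The strongest summit within 5 kb of a miRNA gene stood in jigr1, the host of mir-92a and mir-92b. The hairpin of mir-92a (chr3R:25646506-25646600, plus strand) lies in an intron of jigr1, a gene for a MADF-domain protein that is co-expressed with these miRNAs in neural stem cells, and that of mir-92b (chr3R:25651398-25651497, plus strand) overlaps an exon. The summit scored 1644 in the pooled list, 879 in replicate 1 and 787 in replicate 3 (833 ± 65.0, SD, n = 2). It was 484 bp downstream of mir-92a, 4314 bp upstream of mir-92b and 162 bp from a jigr1 start, and held no octamer within 100 bp. A nearer summit, 766 bp from mir-92b, scored 182.

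The other 4 genes with the seed AUUGCAC also had a summit. These are mir-310, mir-311, mir-312 and mir-313, neighbours on 2R that share 1 strongest summit of 189 (91.0 in replicate 1 and 103 in replicate 3), 4053 to 4473 bp upstream and 762 bp from the start of HnRNP-K. All 6 genes of the seed therefore had a summit, at 2 loci and with strengths 1644 and 189. Among 17 seeds shared by 2 or more genes, counted on the first listed product of each gene, 3 had a summit at every gene. The others were UAAGGAA, with mir-994 (281) and mir-2500 (231), and UGAGUGA, with mir-3644 (197) and mir-4914 (163). In 5 of the 17, no gene had one, and these included CUUUGGU, the seed of mir-9a, mir-9b and mir-9c. Most of the 17 seeds belong to only 2 genes. How many would have a summit at every gene, given the 38.1% of all miRNA genes with one, was not computed.

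The gene mir-4949 followed. Its hairpin (chr3R:31219274-31219372, minus strand) overlaps an exon of ATPsynC, which encodes a subunit of the mitochondrial ATP synthase. The strongest summit, 2467 bp upstream, scored 1039.7, with 486 in replicate 1 and 557 in replicate 3 (521 ± 50.4, SD, n = 2). It lay 1137 bp from the nearest start, that of CG12054, and the TGAATGGA shown above was 48 bp from it. The summit nearest to the hairpin, 144 bp away, scored 233.

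Among intergenic genes mir-14, a suppressor of cell death and regulator of fat metabolism, was the strongest. Its hairpin lies at chr2R:9553762-9553824 on the plus strand inside lncRNA:CR43651. The summit scored 882, with 636 in replicate 1 and 242 in replicate 3 (439 ± 278, SD, n = 2), and these 2 values are further apart than at most summits. It was 1108 bp upstream of the hairpin and 190 bp from the start of the long non-coding gene. There were 5 summits within 5 kb and 13 within 20 kb, of which 4 scored 500 or more, the highest of them 986 at 6576 bp.

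The pair mir-279 and mir-996, which share the seed GACUAGA and restrict the formation of CO2-sensing olfactory neurons, came next among intergenic genes. Their hairpins lie at chr3R:29215585-29215684 and chr3R:29217184-29217280, both on the plus strand and inside lncRNA:CR31044. They share a summit of 660.5, with 263 in replicate 1 and 407 in replicate 3 (335 ± 102, SD, n = 2), 1148 bp upstream of mir-279. The start of lncRNA:CR31044 lay 125 bp from it, and no protein-coding start was nearer than 5735 bp. The other gene with this seed, mir-286, had neither a reproducible nor a relaxed summit within 5 kb.

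The gene mir-317 (chr3R:10091126-10091217, plus strand) lies in no annotated coding or long non-coding host. Its strongest summit scored 637, with 311 in replicate 1 and 341 in replicate 3 (326 ± 21.4, SD, n = 2), 1818 bp upstream. It had 8 summits within 5 kb and 23 within 20 kb, of which 3 held an octamer within 100 bp. One of the octamers is that within the hairpin, whose summit, 36 bp away, scored 164 (88.5 in replicate 1 and 73.9 in replicate 3). A further summit of 330, 2492 bp downstream, lay 52 bp from the start of lncRNA:CR43459, which carries mir-277 and mir-34.

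**Figure D3:**
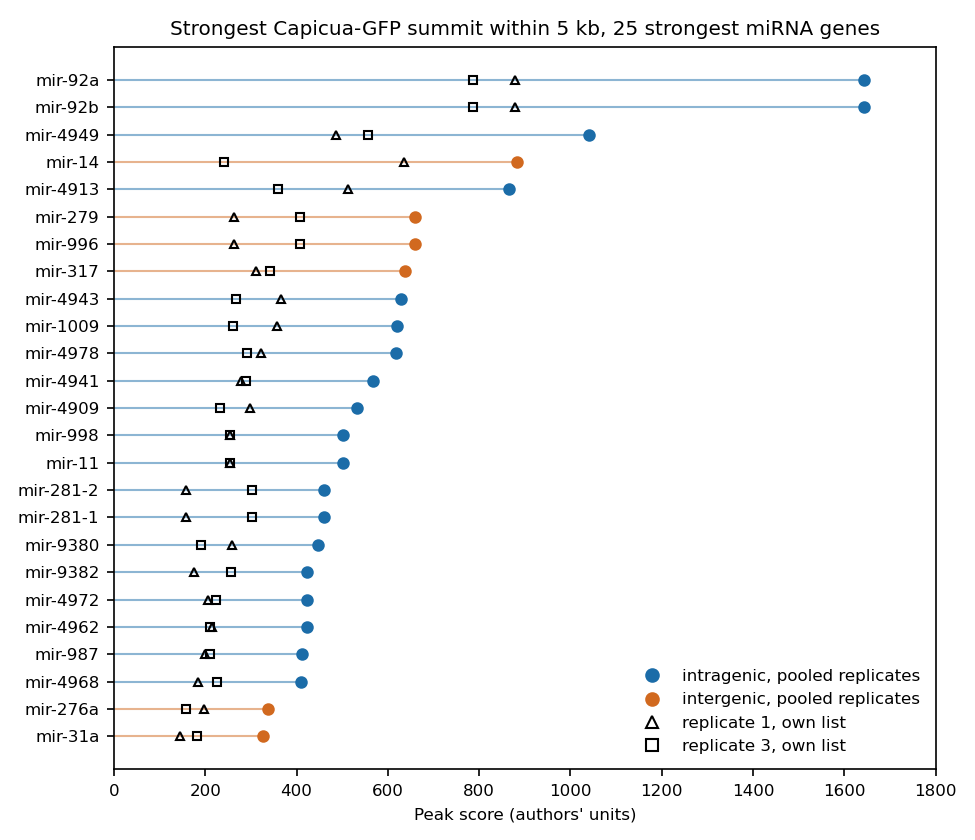
Strongest reproducible summit within 5 kb of the 25 strongest miRNA genes. Filled circles give the authors' score on pooled replicates, for intragenic (blue) and intergenic (orange) genes, and open triangles and squares the scores in the own lists of replicates 1 and 3. The pair mir-92a and mir-92b, with 1644, stands apart, and replicate 1 is far above replicate 3 at mir-14.

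The remaining genes of the 25 strongest were mostly hosted by coding genes. The gene mir-4913 (865, with 512 in replicate 1 and 359 in replicate 3) is an intron-filling hairpin of Culd, and its summit lay 46 bp from the start of the neighbouring gene Idh. In mir-4943 (629), mir-1009 (620.4), mir-4978 (618), mir-4941 (568) and mir-4909 (532), the summits lay 1024 to 4877 bp away. That of mir-1009 was 50 bp from the start of its host CG3860, and that of mir-4941 lay in its host Notum, a gene for a secreted Wnt inhibitor. The gene mir-4978 overlaps mam, a coactivator of Notch, on the other strand.

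The hairpins of mir-998 and mir-11 lie in an intron of E2f1, a cell-cycle transcription factor. The gene mir-11 limits cell death driven by E2f1, and mir-998 promotes signalling by EGFR. Both had a strength of 501, with 255 in replicate 1 and 254 in replicate 3 (255 ± 0.531, SD, n = 2). This summit lay outside the host's promoters, 445 bp from the start of InR, the insulin receptor. At E2f1 itself, a summit 46 bp from a start scored 516 (374 in replicate 1 and 164 in replicate 3) and was 10456 bp from the nearest of the 2 hairpins.

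The other genes among the 25 had strengths from 327 to 459.9. They were mir-281-1 with mir-281-2 in Oda (459.9), mir-9380 (447), mir-9382 in MRP (423), mir-4972 in for (423), mir-4962 in Tlk (422), mir-987 (413), mir-4968 in Mob2 (409), mir-276a (337) and mir-31a (327). The strongest summit of mir-4962 lay inside its hairpin, with 215 in replicate 1 and 211 in replicate 3, and mir-4962 had 9 summits within 5 kb. That of mir-987 lay 150 bp from the start of Myd88, a Toll pathway adaptor, and that of mir-4972 was 127 bp from a start of for, a cGMP-dependent kinase.

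The summits nearest to a hairpin, and those at the distance limit, are given with their own scores. The nearest reproducible summits lay inside the hairpins of mir-4980 (score 118) and mir-4962 (422), 10 bp from mir-9377 (323) and 36 bp from mir-317 (164). Just inside the distance limit were mir-4913, with its closest summit at 4653 bp and a score of 865, and mir-2501, at 4926 bp and 273. Just outside it were mir-1014, at 5117 bp and 479, and mir-1012, at 5365 bp and 154.

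Of the genes listed by role, mir-ban was among those with a higher summit outside the 5 kb limit than within it. Within 20 kb, the same held for mir-14 and mir-277, among others, but not for mir-279 or mir-8. The gene mir-ban promotes growth and blocks cell death by repressing hid, and its hairpin lies at chr3L:642208-642288 on the plus strand, inside lncRNA:CR43334. Within 5 kb mir-ban had 1 summit, of 254, with 127 in replicate 1 and 130 in replicate 3 (129 ± 1.97, SD, n = 2), 3851 bp upstream and without an octamer.

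The start of lncRNA:CR43334 carried a summit of 1209. It lay 156 bp from the start and 13929 bp upstream of the hairpin, with 646 in replicate 1 and 584 in replicate 3 (615 ± 44.0, SD, n = 2), and the first octamer shown above was 26 bp from it. A second summit, 8798 bp upstream of the hairpin, scored 623 (386 in replicate 1 and 244 in replicate 3) and held 2 octamers, 7 and 68 bp away. In all, 8 summits fell in the long non-coding gene or within 1 kb of it. Among the summits at starts of same-strand hosts, only those of sty (1771), jigr1 (1644) and spi (1406) scored higher than that at the start of lncRNA:CR43334.

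**Figure D4:**
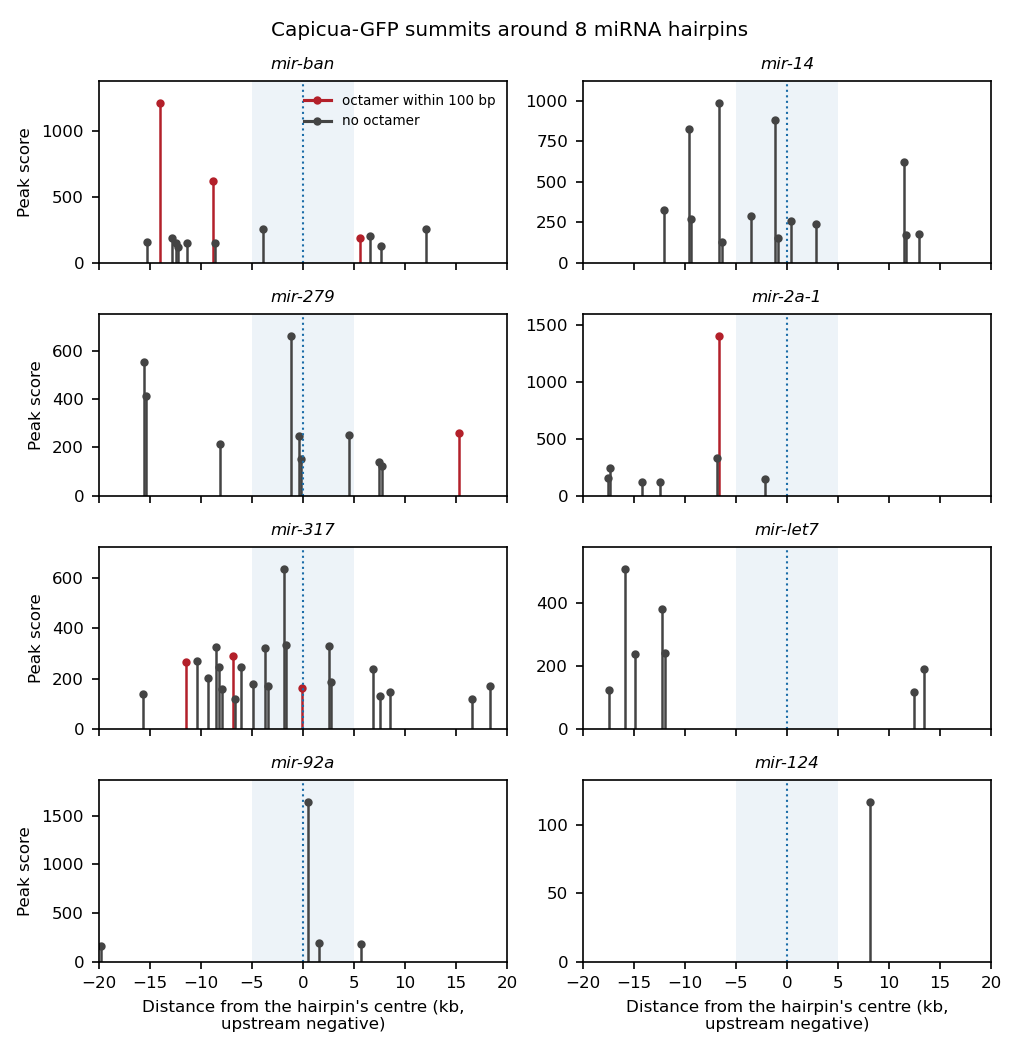
Reproducible summits within 20 kb of 8 hairpins, plotted by distance from the hairpin's centre (kb, upstream negative) and by the authors' score, with a score axis of its own in each panel. Red marks summits with an octamer within 100 bp, and the shaded band is 5 kb to each side. The strongest summits of mir-ban (1209), mir-2a-1 (1406), mir-let7 (509), mir-14 (986) and mir-124 (117) stand outside the band. Those of mir-279, mir-317 and mir-92a stand inside it.

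The let-7 complex also had a higher summit near the start of its long non-coding host than near its hairpins. Its 3 genes, mir-100, mir-let7 and mir-125, which time the transition to the adult, had no reproducible summit within 5 kb, and the relaxed one they share scored 47.2, with a match in replicate 1 (29.3) and none in replicate 3. Their joint primary transcript, lncRNA:let7C, had a summit of 509 at 544 bp from its start, with 247 in replicate 1 and 267 in replicate 3 (257 ± 13.9, SD, n = 2). It lay 15173 bp upstream of the nearest of the 3 hairpins. None of the 4 summits in or within 1 kb of lncRNA:let7C held an octamer.

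Across all hosts, starts were examined separately from hairpins. Of 128 protein-coding hosts on the same strand, 67 had a reproducible summit within 1 kb of a start (52.3%, 43.3 to 61.2), against 30.5% of all protein-coding genes. In 34 of the 67 that summit was over 5 kb from each hairpin. Of 33 long non-coding hosts, 14 did (42.4%, 25.5 to 60.8), against 15.8% of all long non-coding genes, and in 7 it was over 5 kb away. Overlapping hosts of the same hairpin can share a start summit, as CG45092 and chk do, and each was counted. The intervals treat hosts as independent, which they are not. Hosts were longer than other genes, with a median span of 14094.5 bases in coding hosts, against 2166 in all coding genes, and 6494 bases in long non-coding hosts, against 714. The median number of annotated starts was 2 in coding hosts and 1 in all coding genes. The part of length and starts in these shares was not tested.

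Counting host starts added 34 genes to the 99. In all, 133 of 260 (51.2%, 44.9 to 57.4) had a reproducible summit within 5 kb or at a same-strand host's start. Adding starts can only raise the count. No share over all genes or bases was counted under this wider rule, so the 133 have no background here. Among coding hosts, sty, which encodes the ERK antagonist Sprouty, and spi, the gene of the EGFR ligand Spitz, stood high. In sty, which hosts mir-2282 (chr3L:3412145-3412251, minus strand), the gene's own summit within 5 kb of the hairpin scored 315 (161 in replicate 1 and 160 in replicate 3) with the octamer shown above 22 bp away. A summit 6300 bp from the hairpin, 590 bp from a sty start, scored 1771 (909 in replicate 1 and 873 in replicate 3) and held no octamer. The highest summit of any host lay 8215 bp from the hairpin, also in sty, with a score of 1887 (1104 in replicate 1 and 787 in replicate 3) and 2 octamers, 41 and 70 bp away.

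At spi, which hosts mir-2a-1, mir-2a-2 and mir-2b-2, the summit 771 bp from a start scored 1406, with 715 in replicate 1 and 705 in replicate 3 (710 ± 6.59, SD, n = 2). It lay 6280 bp from the nearest hairpin and held an octamer. The only reproducible summit within 5 kb of these hairpins scored 147, with 112 in replicate 1 and 35.3 in replicate 3. Atet, the host of mir-1005, had a start summit of 1087 (594 in replicate 1 and 503 in replicate 3), 10301 bp from the hairpin, whereas the summit within 5 kb scored 197.

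The share of summits with an octamer near miRNA genes had an interval that included both the share in the sequence beside them and the share among all peaks. Of the 200 reproducible summits within 5 kb of a miRNA gene, 6 held TGAATGAA or TGAATGGA on either strand within 100 bp (3.00%, 1.11 to 6.42), and of 400 windows of the same length centred 1000 bp to either side, 10 did (2.50%, 1.21 to 4.55). Among all reproducible peaks, 5.23% did, against 2.80% of their flanks. The 6 lay near mir-4949 (1039.7), mir-4909 (532), mir-4959 (318), mir-2282 (315), mir-317 (164) and mir-4978 (123), each with the score of that summit. That near mir-4978 scored 101 in replicate 3 and had no match in the own list of replicate 1. Of the 119 summits at coding promoters 2 held an octamer, and of the other 81, 4 did. The start summits held one in 3 of 67 coding hosts and in 1 of 14 long non-coding hosts, which was lncRNA:CR43334.

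The genes with described roles were grouped into 9 lists of 59 genes in all, of which 17 had a reproducible summit within 5 kb, 25 a relaxed one only and 17 neither. This compares with 99, 101 and 60 of all 260 genes. The lists are short and several are single loci, and no difference between them was tested. Reproducible summits lay near 3 of 6 growth genes, 5 of 11 of neurons and behaviour, 4 of 9 of metabolism and gut, and 5 of 13 K-box genes. The share of all miRNA genes was 38.1%. None was found within 5 kb of any gene of the muscle, Hox, maternal clearance, night-phase or let-7 lists. The last 3 of these lists are each a single locus, and the counts are not read as a pattern by role.

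In the growth list, which holds genes of proliferation, EGFR signalling and cell death, 3 of 6 had a summit. Beside mir-14 and mir-ban, mir-8, a regulator of growth through insulin signalling in the fat body, had a strength of 238, with 109 in replicate 1 and 150 in replicate 3 (129 ± 28.9, SD, n = 2), and 5 summits within 5 kb. The others had relaxed summits only. They were mir-9a, which acts in sensory organ precursors (67.0), mir-7, which represses the EGFR effector yan (50.9), and mir-278 (45.2).

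In the list of neurons and behaviour, 5 of 11 had a summit. Beside mir-279 and mir-996, mir-276a, which acts in olfactory memory, had one of 337 at 1324 bp, with 197 in replicate 1 and 158 in replicate 3 (178 ± 27.6, SD, n = 2). The start of its long non-coding host carried another, of 382, at 32940 bp (287 in replicate 1 and 99.5 in replicate 3). The gene mir-34, which protects the ageing brain, had 237, and mir-190 had 116, just above the lowest reproducible score. Relaxed summits only were found for mir-263a, annotated as mir-bft (51.9), mir-276b (40.6) and mir-124 (33.7), a neuronal miRNA, and none for mir-137, mir-210 and mir-263b.

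In the list of metabolism and gut, 4 of 9 had a summit. The pair mir-275 and mir-305, the second of which acts in intestinal stem cells, shared one of 278, with 117 in replicate 1 and 172 in replicate 3 (145 ± 38.9, SD, n = 2). The gene mir-277, which controls breakdown of branched-chain amino acids, shared with mir-34 a summit of 237 (151 in replicate 1 and 112 in replicate 3), and the start of their host carried one of 330, 6313 bp away. The gene mir-33, in an intron of the lipid regulator SREBP, had 222 (95.3 in replicate 1 and 149 in replicate 3), at 396 bp from a SREBP start. The rest had relaxed summits, mir-958 (59.9), mir-9c with mir-306 (43.1) and mir-79 with mir-9b (36.4).

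The K-box family takes its name from a motif in target mRNAs that matches its seed AUCACAG, shown above for mir-11 and mir-2a-1. Of the 13 genes with this seed in their first listed product, 5 had a reproducible summit. These were mir-11 at 501, mir-308, in an intron of RpS23, at 181, and the 3 spi hairpins at 147. Another 5 had relaxed summits, at 84.5 for mir-13b-2, 70.5 for the cluster mir-13a, mir-13b-1 and mir-2c, and 68.4 for mir-2b-1. The remaining 3 are mir-6-1, mir-6-2 and mir-6-3 of the maternal clearance cluster.

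Of the other lists, the muscle miRNA mir-1 had a relaxed summit of 50.1, and its companion mir-133 none. Among the 4 Hox cluster genes, mir-10 had a relaxed summit of 89.9 at 396 bp, and mir-993, mir-iab-4 and mir-iab-8 had none, with the nearest reproducible summit 126095 bp away or more. All 8 genes of the mir-309 cluster, which clears maternal mRNA from the embryo, had neither kind within 5 kb, and the nearest reproducible summit, of 190, lay 7387 bp from mir-309. In the cluster of mir-959 to mir-964, expressed at night in adults, 4 genes shared a relaxed summit of 33.5 and mir-963 and mir-964 had none. This relaxed summit had no match in replicate 1.

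**Figure D5:**
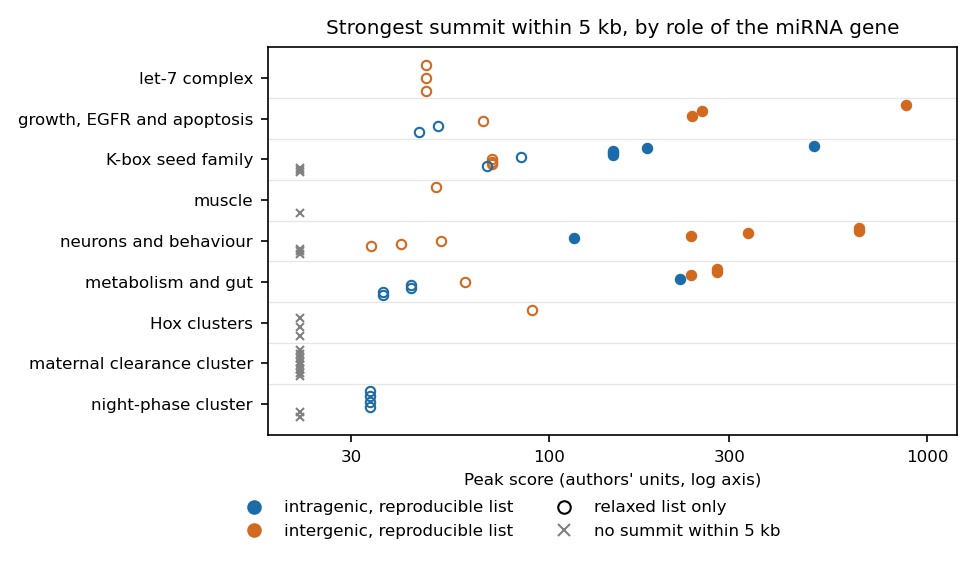
Strength of the listed miRNA genes on a log axis, by role. Filled circles are reproducible summits and open circles relaxed ones, for intragenic (blue) and intergenic (orange) genes, and crosses at the left edge mark genes without a summit within 5 kb. Filled circles appear in 4 of the 9 lists and reach 882, at mir-14.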

How the data were processed

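The deposited dm6 peak lists hold a score per peak, the authors' own peak strength, a −log10 of the q-value, which reaches a ceiling in the authors' reproducible list and was not used to rank, and a summit offset. The lists were made from alignments with a control alignment, per the text lists that accompany the files. Which aligner and peak caller made them is not given in the sources used here, and a control library was not analysed here. Per the labels, the 2 libraries are biological replicates. No per-sample column was left unmapped.

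Genes and transcript starts came from the Ensembl annotation of dm6 on the 6 major arms, and sequence from the RefSeq Release 6 assembly. All 260 miRNA genes have the same coordinates in RefSeq. A miRNA table was not used here, so mature products were read at the annotated coordinates, and let-7 and mir-263a were matched through their synonyms as mir-let7 and mir-bft. A summit is the peak start plus the offset, converted to 1-based positions. The distance to a gene is 0 inside it. For each peak, the highest-scoring entry of a replicate's list sharing at least 1 bp with it gave the replicate score, so neighbouring summits of an interval can share a replicate score, and mean ± SD is over the 2 own-list scores, whose scale differs from that of the pooled list. A hairpin filled an intron when both ends lay within 5 bp of the intron's ends. Octamers were searched on both strands within 100 bp of summits and in windows centred 1000 bp to each side. Intervals are exact (Clopper-Pearson, 95%) and cover counting error only. No p-values were computed.

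Named genes were the 25 strongest, every gene of the role lists, the 4 with the nearest summit, the 2 on each side of the distance limit, and mir-ban; genes named with a seed, a host start or an octamer were chosen after their values were seen. The members, lists and settings were chosen with earlier results of these data known. Alternatives changed the distance, the peaks, the hosts, the replicates and the motif window. Python 3.11.15, numpy 2.4.6, scipy 1.17.1 and matplotlib 3.10.9 were used, and the counting steps were tested on planted summits and octamers.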

Additional observations from a re-analysis of the deposited data

How the results depend on the processing

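The counts of genes depend on the distance. All miRNA genes with a reproducible summit numbered 33 within 1 kb, 56 within 2 kb and 150 within 10 kb, beside 99 within 5 kb. Intragenic genes numbered 21, 36 and 100 in that order, beside 66, and intergenic genes 12, 20 and 50, beside 33. Leaving out summits within 1 kb of a protein-coding start gave 44 genes in all, 26 intragenic and 18 intergenic. No share of bases is given without these summits, so whether the shares of genes stay above background there is not shown. With any gene that is not a small RNA as host, 20 of 51 intergenic genes had a summit. The octamer share was 1.00% with a window of 50 bp and 7.50% with 250 bp, beside 3.00%. Leaving out each replicate gave 97 to 100 genes, of which 91 without replicate 1 and 96 without replicate 3 were among the 99, and 88 in both. Of the 25 strongest genes, 22 were also among the 25 strongest by replicate 1 alone and 24 by replicate 3 alone. No paired analysis was possible because the study has 1 group and the results come from no test. Without read counts, counting error in the scores is unknown.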
